A study of Mus musculus with 3 samples.

Results

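The wide peaks described here were the rows of the ATRX ChIP-seq peak lists on chromosomes 1 to 19 that spanned 800 bp or more. They numbered 4935 of the 217827 peaks of both lists together, with 2228 in the MICAL1-FL list and 2707 in the control list. They were chosen by their width, a value of the lists themselves. Everything that goes with width in the same list, which is depth, fold, p and q, is therefore given as a description. What the wide peaks had in common with the other library and their places in genes were not used to choose them.

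Peaks of the chromatin protein ATRX were mapped in cultured mouse primary neurons from C57BL6/J embryos (E15.5 to E17.5). Lentivirus was added on day 5 in vitro, and the labels give day 14 for the cultures. One culture group received MICAL1-FL and the control group mCherry, and both were precipitated with an antibody against ATRX after enzymatic digestion of chromatin. Input DNA served as background and sequencing was paired-end, and 1 input sample of control neurons was not analysed here. Each condition had 1 ChIP library, so differences between the conditions have no replicate check and none was tested. Peak identifiers start with TBC_M2 in the list labelled MICAL1-FL, a name that does not state MICAL1-FL, and with CTL in the control list. The groups were taken from the sample titles.

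ATRX belongs to the SWI/SNF family of chromatin remodellers. With its partner DAXX it is known to place histone H3.3 at telomeres, at pericentromeric satellites and at G-rich tandem repeats. In neurons the loss of ATRX is known to impair survival and synaptic function. MICAL1 is a monooxygenase that oxidises actin filaments. A peak caller draws a wide peak where the piled-up fragments stay above background over a long stretch, or where neighbouring short peaks are joined.

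Wide peaks were a small share of each list and held more than their share of its bases. They made up 2.14% of the autosomal MICAL1-FL peaks (95% exact Clopper-Pearson interval 2.05 to 2.23) and 2.46% of the autosomal control peaks (2.37 to 2.55). They covered 2.22 Mb in the MICAL1-FL list and 2.66 Mb in the control list, which were 5.60% and 6.28% of the autosomal peak bases. All intervals here cover counting error only, and neighbouring peaks are not independent of each other. The list labelled MICAL1-FL held 0.823 times as many wide peaks as the control list, and 0.947 times as many autosomal peaks in all. With 1 library each and unknown library depth, these ratios only describe the lists. By chromosome, the wide share ran from 1.82% on chromosome 1 to 2.56% on chromosome 18 in the MICAL1-FL list. In the control list it ran from 2.11% on chromosome 16 to 3.08% on chromosome 9.

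Most wide peaks were only a little above the limit and only a few fragments deep. Median width was 920.5 bp in the MICAL1-FL list and 917 bp in the control list, with 693 and 862 peaks of 1000 bp or more. Peaks of 2000 bp or more numbered 26 in the MICAL1-FL list and 16 in the control list. The widest spanned 11288 bp and 5546 bp. Depth, the number of ChIP fragments piled up at the summit, was recovered from the authors' fold and p. Its median was 6 fragments for wide peaks and 5 for narrower peaks in each list. The authors' q was 0.05 or lower for 65 wide MICAL1-FL peaks and 100 wide control peaks, and it was 1 for 85.6% and 83.3% of them. Just inside the limit, peaks of 800 to 809 bp had a median depth of 6 fragments and a median fold of 2.53 in the MICAL1-FL list and 2.42 in the control list. Just outside it, peaks of 790 to 799 bp also had a median depth of 6, with median folds of 2.66 and 2.51, so the limit marks no step in the values.

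The promoters below show the kind of place where wide ATRX peaks of both lists met at a gene start. The sequences are from the RefSeq promoter table of mouse build GRCm38.p6 and give the 250 bases before the start, 5′ to 3′ on the strand of the gene, with CG dinucleotides in capitals. Of the 10 genes whose whole promoter window lay in a wide peak of both lists, these 3 had the highest smaller fold of the pair.
P2ry1 promoter (chr3:61002535-61002784, plus strand): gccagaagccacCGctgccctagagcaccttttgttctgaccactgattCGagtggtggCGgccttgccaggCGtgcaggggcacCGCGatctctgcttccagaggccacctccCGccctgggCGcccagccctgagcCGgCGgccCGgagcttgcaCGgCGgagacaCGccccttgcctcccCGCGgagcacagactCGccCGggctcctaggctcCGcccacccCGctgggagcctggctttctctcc
Lrrc7 promoter (chr3:158561762-158562011, minus strand): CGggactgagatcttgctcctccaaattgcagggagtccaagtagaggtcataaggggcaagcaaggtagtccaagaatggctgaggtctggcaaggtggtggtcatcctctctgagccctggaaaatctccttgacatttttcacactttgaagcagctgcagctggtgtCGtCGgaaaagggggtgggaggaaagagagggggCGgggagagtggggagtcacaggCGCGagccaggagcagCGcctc
Ptbp2 promoter (chr3:119783389-119783638, minus strand): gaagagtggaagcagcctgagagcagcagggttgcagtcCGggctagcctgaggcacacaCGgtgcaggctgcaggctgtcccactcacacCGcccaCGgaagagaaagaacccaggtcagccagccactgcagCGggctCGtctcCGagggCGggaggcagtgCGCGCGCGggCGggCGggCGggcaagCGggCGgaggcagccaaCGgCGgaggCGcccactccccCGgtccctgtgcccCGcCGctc
P2ry1 encodes a G protein-coupled receptor for ADP. Its promoter had 20 CG dinucleotides, against a median of 10 over all promoters (quartiles 3 and 19). Lrrc7 encodes densin, a scaffold of the postsynaptic density, and its promoter had 7. Ptbp2 encodes a splicing regulator of developing neurons, and its promoter had 23.

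At P2ry1 the wide peak was 1242 bp wide, 9 fragments deep and 3.59-fold over background in the MICAL1-FL list. In the control list it was 1045 bp wide, 8 fragments deep and 3.43-fold. The Lrrc7 peak was 2111 bp wide with a fold of 3.44 in the MICAL1-FL list and 834 bp wide with a fold of 3.33 in the control list, 8 fragments deep in both. The Ptbp2 peak was 928 bp wide and 7 fragments deep (fold 3.06) in the MICAL1-FL list, and 1128 bp wide and 11 fragments deep (fold 4.58) in the control list. Klf3, which encodes a zinc finger repressor, had peaks of 1214 bp and 1282 bp that shared 1210 bp. Folds rest on the background of each list, and how it was scaled was not found in the sources used here. They are therefore given side by side and not as a measure of change.

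Wide peaks of one library were found again in the other more often than narrower peaks. The summit, a single base, lay in a peak of the control list for 254 of 2228 wide MICAL1-FL peaks, which is 11.4% (10.1 to 12.8). For narrower MICAL1-FL peaks this share was 4.04% (3.92 to 4.16), and for all autosomal peaks of that list it was 4.2%. The odds ratio of wide over narrower peaks was 3.06 (exact conditional interval 2.66 to 3.50). The summits of 286 of 2707 wide control peaks, or 10.6% (9.43 to 11.8), lay in a MICAL1-FL peak. That compares with 3.8% (3.68 to 3.91) for narrower control peaks and 3.96% for all of them, an odds ratio of 2.99 (2.63 to 3.40). These recoveries are the same sharing seen from both sides and are not independent of each other.

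The share of recovered summits grew along the whole range of widths. In the MICAL1-FL list it was 3.33% of peaks under 300 bp, 6.61% at 700 to 799 bp, 9.32% at 800 to 999 bp, 12.9% at 1000 to 1499 bp and 41.3% (30.1 to 53.3) at 1500 bp or more. In the control list the same classes had 3.24%, 6.93%, 8.35%, 14% and 28.6% (18.8 to 40). The highest class held 75 peaks in the MICAL1-FL list and 77 in the control list.

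**Figure D1:**
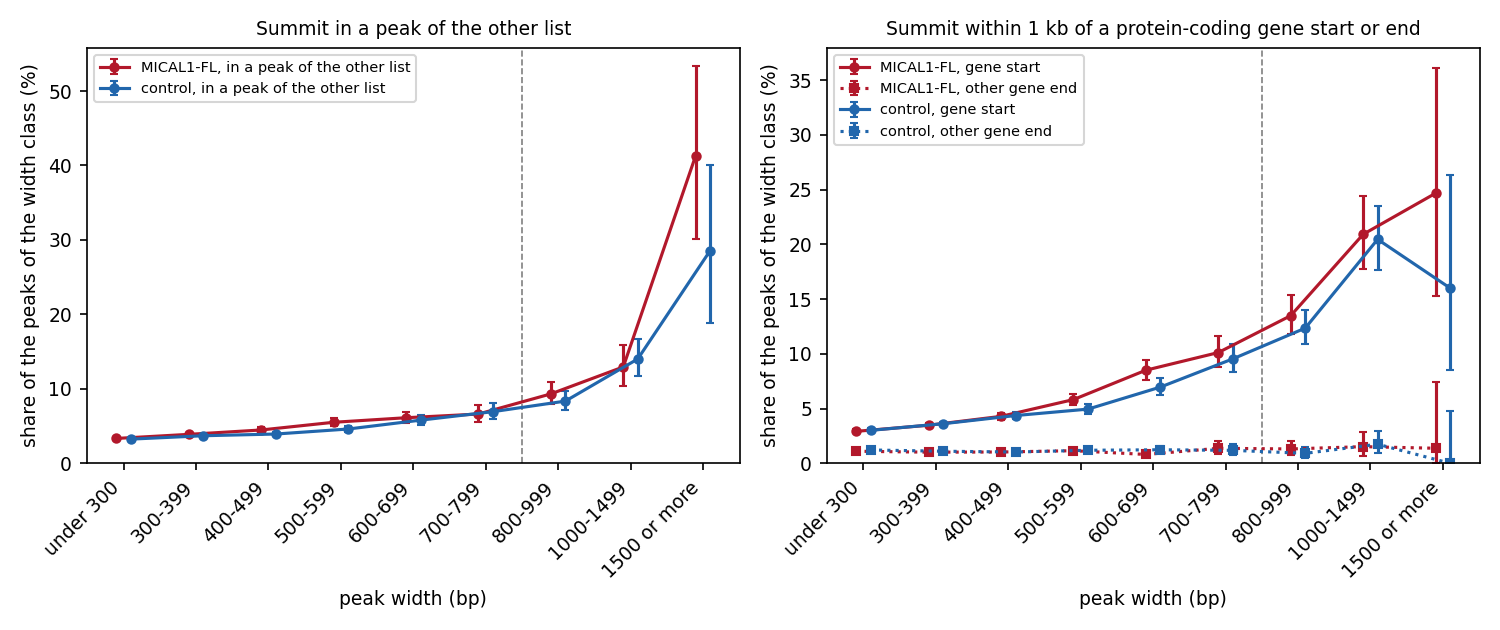
Share of peaks (%) whose summit lay in a peak of the other list (left) or within 1 kb of a protein-coding gene start or of the other gene end (right), by peak width in bp. Points are single libraries with 95% exact Clopper-Pearson intervals, MICAL1-FL in red and control in blue, and the dashed line marks 800 bp. Sharing in the MICAL1-FL list is 3.33% in the narrowest and 41.3% in the widest class, and the share at other gene ends stays low in every class. The widest class includes peaks at places of high background.

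Depth moved with width, and sharing also rose with depth, so wide and narrower peaks were set side by side at equal depth. Among MICAL1-FL peaks 7 fragments deep, 13.3% of wide and 5.80% of narrower summits lay in a control peak, an odds ratio of 2.48 (1.84 to 3.31). Among control peaks of that depth the shares were 10.3% and 5.40%, an odds ratio of 2.01 (1.5 to 2.66). The intervals also lay above 1 at depths of 6 and of 8 to 9 fragments in both lists, and at 10 to 14 in the control list. At 5 fragments they included 1, with odds ratios of 1.42 (0.912 to 2.11) in the MICAL1-FL list and 0.906 (0.513 to 1.49) in the control list. They also included 1 at 4 and at 15 or more fragments in both lists, and at 10 to 14 in the MICAL1-FL list. At 4 fragments 0 of 55 wide MICAL1-FL summits and 2.79% of narrower ones were shared. In the control list these were 3 of 52 and 2.73%. At 15 or more fragments, 67.4% of wide and 58.3% of narrower MICAL1-FL summits were shared, and 67.9% of wide and 62.7% of narrower control summits.

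**Figure D2:**
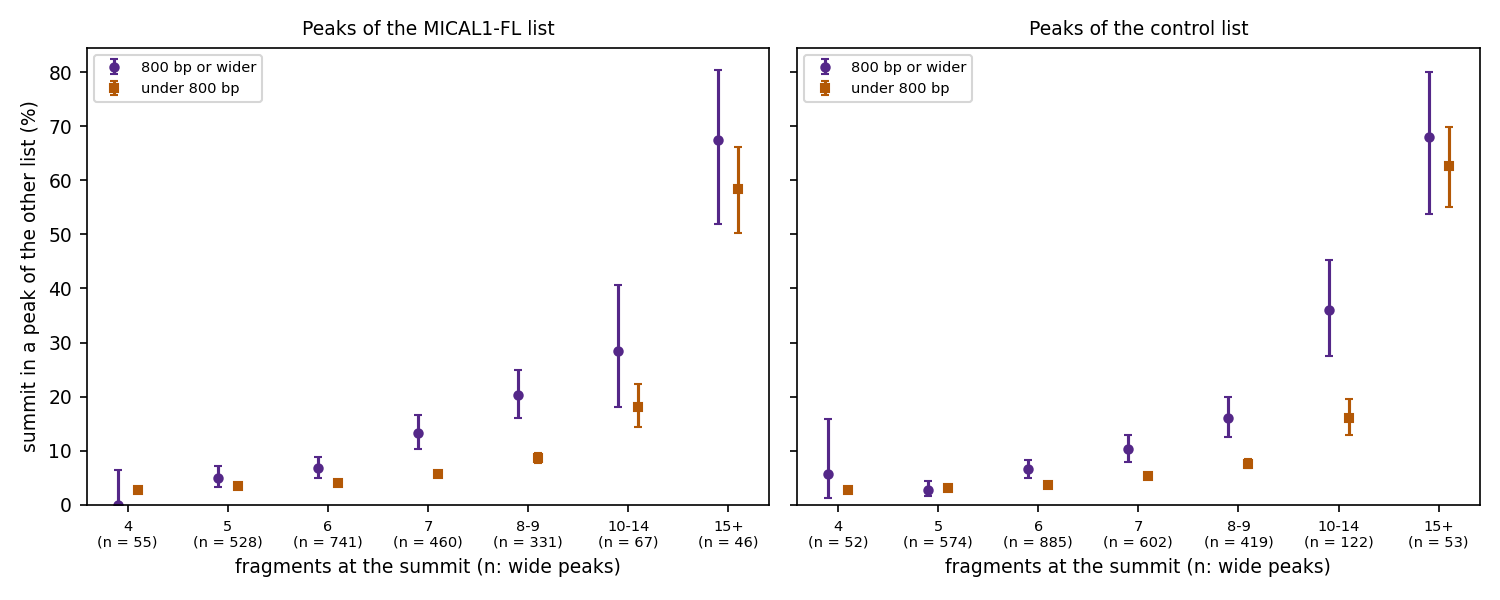
Share of summits (%) that lay in a peak of the other list, by the number of fragments at the summit, for peaks of 800 bp or wider (purple circles) and under 800 bp (orange squares), with 95% exact Clopper-Pearson intervals. At 7 fragments the shares were 13.3% for wide and 5.80% for narrower peaks in the MICAL1-FL list (left), and 10.3% and 5.40% in the control list (right).

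The difference was also present where background was low. Among peaks at the lowest background of each list, 8.10% of wide MICAL1-FL summits and 3.34% of narrower ones were shared, an odds ratio of 2.55 (2.07 to 3.12). In the control list these were 7.29% and 3.25%, an odds ratio of 2.34 (1.9 to 2.86). Over 1 kb from any listed gene start the odds ratios were 2.50 (2.09 to 2.97) in the MICAL1-FL list and 2.68 (2.28 to 3.13) in the control list. Within 1 kb of a start, sharing was higher for wide and narrower peaks alike, at 26.9% and 16.3% for MICAL1-FL peaks, and at 24.3% and 15.7% in the control list.

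Per base, too, wide peaks held more summits of the other list. Inside wide MICAL1-FL peaks there were 214 control summits per Mb (exact Poisson interval 195 to 234), inside narrower MICAL1-FL peaks 104 (101 to 107), and in flanks 5 to 10 kb away from wide peaks 69.1 (65.6 to 72.6). Inside wide control peaks there were 208 MICAL1-FL summits per Mb (191 to 226), inside narrower control peaks 96.3 (93.3 to 99.4), and in the flanks 63.7 (60.7 to 66.8).

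Width itself recurred in part. Of the wide MICAL1-FL peaks, 112 met a wide control peak, which is 5.03% (4.16 to 6.02), against 0.582% of narrower peaks and 0.677% of all. Of the wide control peaks, 123 met a wide MICAL1-FL peak, which is 4.54% (3.79 to 5.40), against 0.462% of narrower peaks and 0.562% of all. Longer peaks have more room to touch each other, so the width of the partner under a summit was also taken. Partners of wide MICAL1-FL summits had a median width of 573.5 bp and were themselves wide in 29.5% of cases, while partners of narrower summits had 412 bp and 11.6%. For the control list these values were 549.5 bp and 30.4%, against 405 bp and 9.53%. Recurrence of width was not compared at equal depth. Still, 74.9% of wide MICAL1-FL peaks and 75.7% of wide control peaks overlapped no peak of the other list at all.

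In all, 124 pairs joined a wide MICAL1-FL peak and a wide control peak, with a median distance of 481 bp between their summits. Of these pairs 15 lay in the first stretch of chromosome 9, and 97 had a background under 4 fragments in both lists. Some wide peaks entered several pairs, so the pairs are not all separate places. In 62 of the pairs the overlap covered 50% or more of both peaks. Of those 62, 28 (45.2%) had a gene start within 1 kb of either summit, against 46 (37.1%) of all 124 pairs. Another 12 of the 62 overlapped no annotated gene, among them the 7 that lay in the first stretch of chromosome 9.

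Cacng4 held the wide peak with the highest fold of either list. It encodes an auxiliary subunit of AMPA-type glutamate receptors. The MICAL1-FL peak at chr11:107783160-107786542 was 3383 bp wide, 20 fragments deep and 7.39-fold over a background of 1.84 fragments. Its control partner was 1667 bp wide, 14 fragments deep and 4.74-fold. Altogether 4 wide MICAL1-FL peaks and 1 wide control peak lay around it, in chr11:107772763-107792777. Another dense place was Il3ra on chromosome 14, the gene of the interleukin-3 receptor alpha chain, with a MICAL1-FL peak of 4981 bp, 11 fragments deep, and a control partner of 880 bp, 14 fragments deep. Around Crlf2 and the noncoding Gm8493 on chromosome 5 there were 3 wide MICAL1-FL peaks and 4 wide control peaks. Plxnc1, which encodes a semaphorin receptor, had wide peaks of 1318 bp and 979 bp, each 10 fragments deep, with a fold of 4.2 in both lists.

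The deepest wide peaks lay at a few places where the background was high as well. The assembly of chromosome 9 is known to open with satellite repeats. At chr9:3000017-3038304 12 of the 16 MICAL1-FL peaks and 15 of the 25 control peaks were wide, and the deepest of them had 6542 fragments in the MICAL1-FL list and 6339 in the control list. Backgrounds there were 93.5 to 1139 fragments in the MICAL1-FL list and 114 to 1668 in the control list. At chr14:19416878-19419473 a MICAL1-FL peak of 2596 bp was 10775 fragments deep, and its control partner of 2579 bp was 10251 fragments deep. The ribosomal RNA sequence Rn18s-rs5 on chromosome 17 lay under peaks of 5846 bp in the MICAL1-FL list and 5546 bp in the control list. Their depths of 123 and 131 fragments were close, while their folds were 5.02 and 1.74, over backgrounds of 23.7 and 74.9 fragments. The widest peak of all, 11288 bp at Sfi1 on chromosome 11, was 58 fragments deep in the MICAL1-FL list. The longer stretch chr11:3184224-3200073 held 3 MICAL1-FL peaks, all wide, and 9 control peaks, 5 of them wide. Greatest depths there were 58 and 111 fragments. Fragments from many repeat copies can pile up on 1 reference copy, and no repeat annotation was used.

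Some wide peaks stood in runs of 3 or more within 10 kb of each other, at 8 places in the MICAL1-FL list and 12 in the control list. Beside the repeats, the longest runs lay in the gamma protocadherin array of chromosome 18, whose genes encode adhesion molecules that give neurons individual surface identities. The array had a run of 6 wide MICAL1-FL peaks, 6 to 8 fragments deep, and a run of 12 wide control peaks, 6 to 11 fragments deep. Some runs had no wide peak in the other list, in both directions. At chr4:3062021-3069653, 3 of 4 MICAL1-FL peaks and 0 of 1 control peak were wide, with greatest depths of 23 and 41 fragments. At chr16:3233497-3248144, 3 of 5 MICAL1-FL peaks and 0 of 2 control peaks were wide, with greatest depths of 25 and 22 fragments. At the ribosomal 5S genes of chromosome 8 (chr8:123594555-123622540), 0 of 14 MICAL1-FL peaks and 6 of 14 control peaks were wide, with greatest depths of 16 and 19 fragments. At chr6:47743083-47773092, which holds the noncoding Gm52861 and Gm52862, 0 of 10 MICAL1-FL peaks and 8 of 14 control peaks were wide, with greatest depths of 43 and 64 fragments. On chromosomes 8 and 6, peaks at these places covered 6585 bp in the MICAL1-FL list and 10916 bp in the control list at the 5S genes, and 3655 bp and 13546 bp at the chromosome 6 place. Around Sox4, a transcription factor of developing neurons, 0 of 5 MICAL1-FL peaks and 4 of 5 control peaks were wide, 8 and 9 fragments deep at most.

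Wide peaks gathered at the starts of genes. Of 2120 wide MICAL1-FL summits on the chromosomes with listed starts, 338 lay within 1 kb of a protein-coding gene start, which is 15.9% (14.4 to 17.6). For narrower peaks the share was 3.9% (3.78 to 4.02) and for all peaks 4.15%, and the odds ratio of wide over narrower peaks was 4.68 (4.13 to 5.28). In the control list 383 of 2589 wide summits, or 14.8% (13.4 to 16.2), lay within 1 kb of a start. Narrower control peaks had 3.88% (3.76 to 4) and all control peaks 4.15%, an odds ratio of 4.30 (3.83 to 4.82). Within 1 kb of the other end of genes the intervals included 1, with 1.37% of wide and 1.05% of narrower MICAL1-FL summits (odds ratio 1.3, 0.866 to 1.89) and 1.12% and 1.14% in the control list (0.982, 0.653 to 1.42). Within 3 kb of that end the odds ratio was 1.256 (0.997 to 1.564) in the MICAL1-FL list. In the control list it was 1.32 (1.083 to 1.596), an interval above 1. By width, the share at starts was 13.5% at 800 to 999 bp, 20.9% at 1000 to 1499 bp and 24.7% (15.3 to 36.1) at 1500 bp or more in the MICAL1-FL list. Control peaks of these classes had 12.3%, 20.5% and 16% (8.55 to 26.3).

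Summits at starts lay mostly on the gene side. In the MICAL1-FL list 65.1% of the 338 wide summits (59.7 to 70.2) and 65.6% of narrower summits near a start were downstream of it, and in the control list 72.1% of 383 (67.3 to 76.5) and 67.6%. Median positions were 160 bp and 173 bp into the gene for wide and narrower MICAL1-FL peaks, and 246 bp and 195 bp for wide and narrower control peaks.

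**Figure D3:**
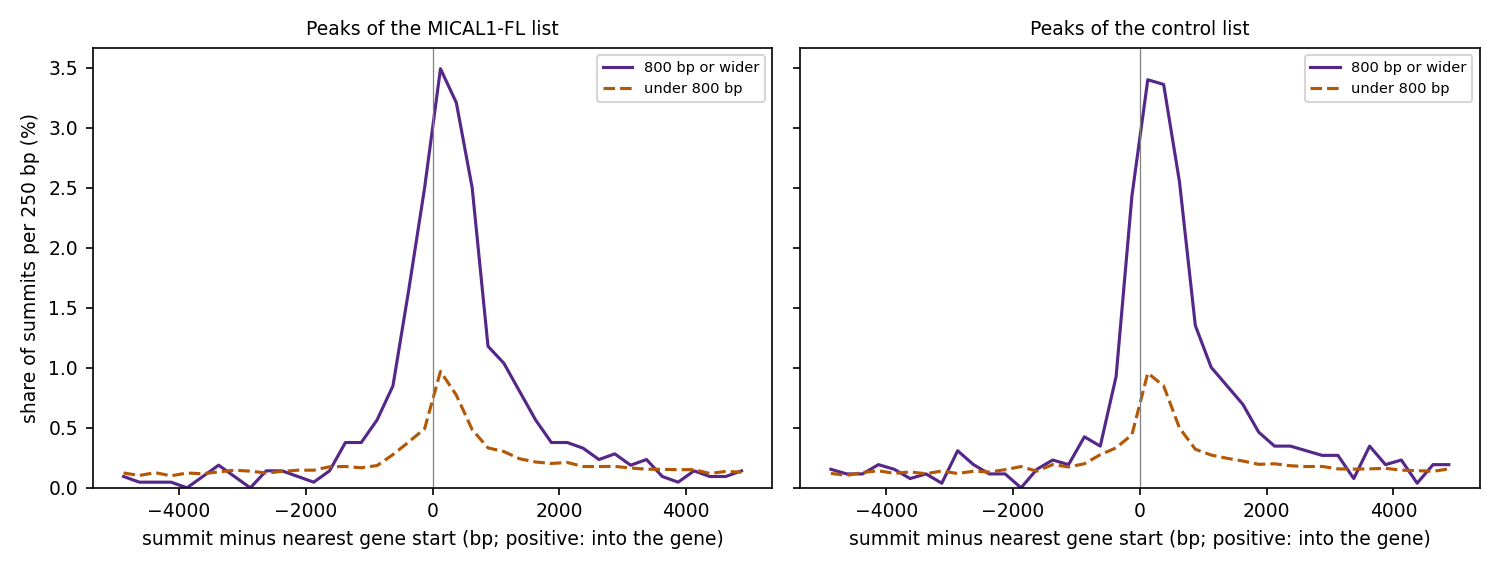
Share of summits (%) in steps of 250 bp by distance to the nearest protein-coding gene start, for peaks of 800 bp or wider (solid purple) and under 800 bp (dashed orange), in the MICAL1-FL list (left) and the control list (right). The tallest step holds 3.49% of wide and 0.970% of narrower MICAL1-FL summits, and 3.40% of wide and 0.956% of narrower control summits.

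The gathering at starts was present at equal depth, with intervals above 1 at 4 to 14 fragments in the MICAL1-FL list and at 5 to 14 in the control list, but not at 4 in the control list or at 15 or more in either. At 7 fragments, 20.9% of wide and 7.21% of narrower MICAL1-FL summits lay within 1 kb of a start (odds ratio 3.39, 2.63 to 4.34), and 17.8% of wide and 6.50% of narrower control summits (3.11, 2.46 to 3.92). At 8 to 9 fragments the shares were 29.3% and 12.5% among MICAL1-FL peaks, with 29.4% and 10.2% among control peaks. At 15 or more fragments 0 of 45 wide MICAL1-FL summits, which allows a share of up to 7.87% (upper Clopper-Pearson limit), and 4 of 53 wide control summits, or 7.55% (2.1 to 18.2), lay within 1 kb of a start. Narrower summits of that depth were also seldom at starts, with 3 of 152 (1.97%) in the MICAL1-FL list and 10 of 169 (5.92%) in the control list. Wide peaks at starts had depths of 4 to 14 fragments in the MICAL1-FL list and 4 to 45 in the control list, with a median of 7 in both, and their q was 0.05 or lower in 9 of 338 and 24 of 383 cases.

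Protein-coding genes held a larger part of the wide summits, also away from listed starts. Of wide MICAL1-FL summits 51.3% (49.2 to 53.4) lay in a protein-coding gene, against 42.2% of narrower and 42.4% of all. In the control list the shares were 53.6% (51.7 to 55.5), 43.0% and 43.2%. Over 1 kb from any listed start the odds ratios of wide over narrower peaks were 1.22 (1.11 to 1.34) in the MICAL1-FL list and 1.261 (1.16 to 1.37) in the control list. Outside annotated genes lay 38.7% of wide and 48.4% of narrower MICAL1-FL summits, and 36.8% of wide and 47.8% of narrower control summits.

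Of 16457 protein-coding genes with a listed start, 365 (2.22%) had a wide MICAL1-FL summit within 1 kb of it and 391 (2.38%) a wide control summit. Both lists had one at 40 genes, which is 10.96% (7.94 to 14.6) of the MICAL1-FL genes and 10.2% (7.41 to 13.7) of the control genes. Among genes with only narrower MICAL1-FL summits at a start, 5.25% had a wide control summit, and among those with none, 1.29%. Among genes with only narrower control summits, 4.57% had a wide MICAL1-FL summit, and among those with none, 1.25%. A gene thus had a wide summit in one library most often where it had one in the other, yet 325 of the 365 MICAL1-FL genes and 351 of the 391 control genes had one in that list alone.

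At 38 of the 40 genes the wide summits lay at the same start. They were of varied kinds, and the examples here were picked after their values were seen. Neo1, the gene of neogenin, a receptor for netrins and repulsive guidance molecules, had peaks of 1338 bp and 1042 bp, each 7 fragments deep. The peaks at Rgmb, the gene of a repulsive guidance molecule, were 880 bp and 1003 bp wide and overlapped by 34 bp. At Cnr1, the cannabinoid receptor gene, they were 1550 bp and 971 bp wide. Adgrl3, the gene of a latrophilin of synapses, had a peak 7 fragments deep in the MICAL1-FL list and 10 in the control list. Foxp1, the gene of a forkhead factor of cortical neurons, had wide peaks on both sides of its start that did not overlap, 8 and 10 fragments deep. Cdh8 and Nectin3, both genes of cell adhesion molecules, had pairs with depths of 8 and 8 and of 7 and 8 fragments. Metabolic genes were among the 38 as well. Hk1, the gene of a hexokinase, had peaks of 1161 bp and 854 bp, each 8 fragments deep, and Gpd2, the gene of a mitochondrial glycerol phosphate dehydrogenase, peaks of 955 bp and 877 bp, 5 and 8 fragments deep.

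Starts with a wide summit had promoters rich in CG dinucleotides. The promoter window, 250 bases before to 50 after a start, had a median of 9 CG per 100 bases at the 411 starts with a wide MICAL1-FL summit (quartiles 6 and 11.7). The median was 7.33 at the 4204 starts with narrower MICAL1-FL summits only and 3.33 at the 15470 starts with none. At 448 starts with a wide control summit it was 9 (6 and 12.3), at 4375 starts with narrower control summits 7.33, and at 15262 starts with none 3.33. Narrower peaks 7 or more fragments deep stood between, with 8 in the MICAL1-FL list and 8.33 in the control list. The quartile ranges of wide and narrower starts overlap widely.

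**Figure D4:**
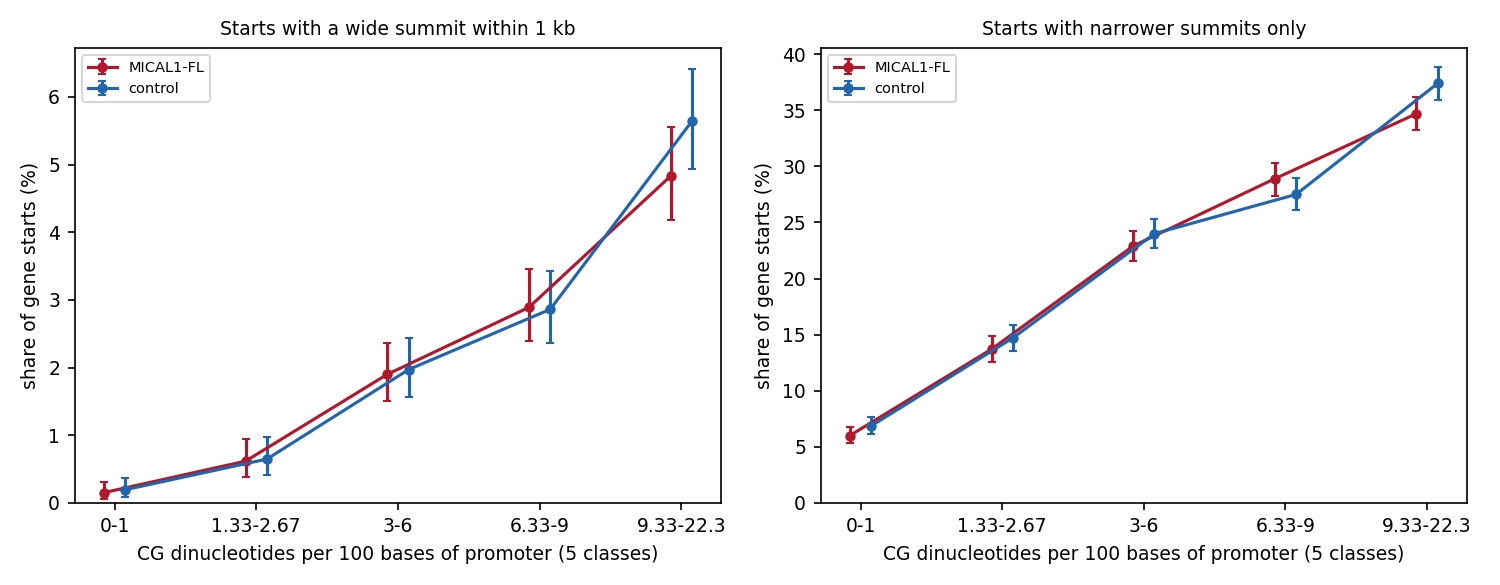
Share of gene starts (%) with a wide summit within 1 kb (left) or with narrower summits only (right), by 5 classes of CG dinucleotides per 100 promoter bases, MICAL1-FL in red and control in blue, with 95% exact Clopper-Pearson intervals. Wide summits were at 0.151% of starts in the lowest class and 4.83% in the highest in the MICAL1-FL list, and at 0.194% and 5.64% in the control list.

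Across 5 classes of starts by CG content, the share of starts with a wide summit was higher in each class than in the one before, in both lists. The share of starts with a wide MICAL1-FL summit was 0.151% (0.0608 to 0.311) in the lowest class and 4.83% (4.18 to 5.55) in the highest, and with narrower MICAL1-FL summits only it was 6% and 34.7%. The control list had 0.194% (0.0889 to 0.368) and 5.64% (4.94 to 6.41) for wide summits and 6.86% and 37.4% for narrower ones. Recurrence was also counted within classes of like CG content. In the highest class a wide control summit was present at 10.5% (6.55 to 15.8) of starts with a wide MICAL1-FL summit, 8.42% (7.01 to 10) of those with narrower ones and 3.66% of those with none. In the other direction the shares were 9.01% (5.59 to 13.6), 6.87% (5.63 to 8.28) and 3.08%. In both directions the intervals for wide and narrower summits overlapped in this class. In the class below it, the shares were 10.5% (5.56 to 17.7) after wide and 4.13% (3.05 to 5.45) after narrower MICAL1-FL summits, and 10.6% (5.61 to 17.8) after wide and 3.59% (2.56 to 4.87) after narrower control summits.

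Since ATRX is known for G-rich repeats, runs of G were counted in the same promoters on both strands. The run GGGGG was present in 76.2% of promoters with a wide MICAL1-FL summit, 67.6% with narrower summits only and 51.6% with none, and in 82.4%, 68.8% and 50.9% for the control list. At starts with narrower summits 7 or more fragments deep the shares were 70.7% in the MICAL1-FL list and 72.8% in the control list. Of all promoters 55.5% held the run. The telomere repeat unit TTAGGG was present in 9.49% of promoters with a wide MICAL1-FL summit and 10.7% of those with a wide control summit, near its share of 10.5% of all promoters. The alternating CGCGCG, which overlaps the count of CG, was present in 33.1% and 36.6% of the wide promoters and 15.7% of all. Median GC content was 67.7% in promoters with a wide MICAL1-FL summit, 68.0% in those with a wide control summit and 57.0% in all. With narrower summits only it was 62.7% and 63.0%, and with none 55.0% and 54.7%, for the MICAL1-FL and control lists. The part of GC content in the counts of GGGGG was not tested. These are descriptions of promoters and not of the peaks themselves, and the part of base composition in sequencing coverage was not tested.

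Genes of synapses and axon growth often held a wide peak in the gene or within 5 kb of it. Over all 20665 protein-coding genes this was so for 6.1% in the MICAL1-FL list and 7.12% in the control list. Of 38 synaptic adhesion genes 14 had a wide MICAL1-FL peak and 17 a wide control peak, 12 of them both. Lsamp, the gene of a limbic cell adhesion protein, had 1 and 4, and Ptprd, the gene of a receptor phosphatase that organises synapses, 2 and 3. Of 33 axon guidance genes the numbers were 11 and 13, with Unc5c, a netrin receptor gene, at 1 and 3 peaks. Of 25 glutamate receptor genes they were 8 and 7, with Grid1 at 3 and 3 and Grm7 at 3 and 1. One of the widest control peaks, 2460 bp and 10 fragments deep, lay in Grid1 with its summit in no MICAL1-FL peak.

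Neuronal transcription factors had wide peaks in 11 of 26 genes in the MICAL1-FL list and 9 in the control list. Auts2, a gene of a chromatin regulator in neurons, had 1 and 7. Of 22 potassium and calcium channel genes 9 and 8 had one, and of 26 activity-regulated genes 5 and 4. Long genes have more room for a peak. Median lengths were 729 kb for synaptic adhesion genes, 206 kb for axon guidance genes and 17.5 kb for all genes. The part of gene length in these shares was not tested. At listed starts alone, where 2.22% of all genes had a wide MICAL1-FL summit and 2.38% a wide control summit, the counts were small. They were 3 of 29 in each list for synaptic adhesion genes, 3 of 28 in each list for axon guidance genes and 1 of 20 in each list for activity-regulated genes. Of 15 glutamate receptor genes 0 had one in the MICAL1-FL list and 1 in the control list, and of 16 channel genes 0 and 3.

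The clustered protocadherins, whose genes overlap and so share peaks, had a wide peak in 31 of 57 genes in the MICAL1-FL list and 34 in the control list. Hox genes, the clustered regulators of body axis, had 0 of 39 in the MICAL1-FL list and 7 of 39 in the control list, with 2 control peaks at Hoxd10. Their median length is 3.74 kb and 5 kb was added on both sides, so 1 peak can count for several neighbouring Hox genes. The 7 genes may therefore not be separate counts. Olfactory receptor genes, which are short, had 1 of 1104 and 4 of 1104. Of genes of ATRX, H3.3 and heterochromatin factors 1 of 17 had a wide peak in each list, Hira in the MICAL1-FL list and Dnmt3a in the control list. Mical2, of the family of MICAL1, had 1 wide peak in each list, 6 and 5 fragments deep. Of 5 neuron marker genes, with a median length of 267 kb, 2 had a wide peak in each list. Of 5 astrocyte markers, Aqp4 had 1 in the MICAL1-FL list, and of 5 microglia and 5 oligodendrocyte markers none had one in either list. With 6.1% and 7.12% of all genes holding a wide peak, a count of 0 among 5 genes is near that background.

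**Figure D5:**
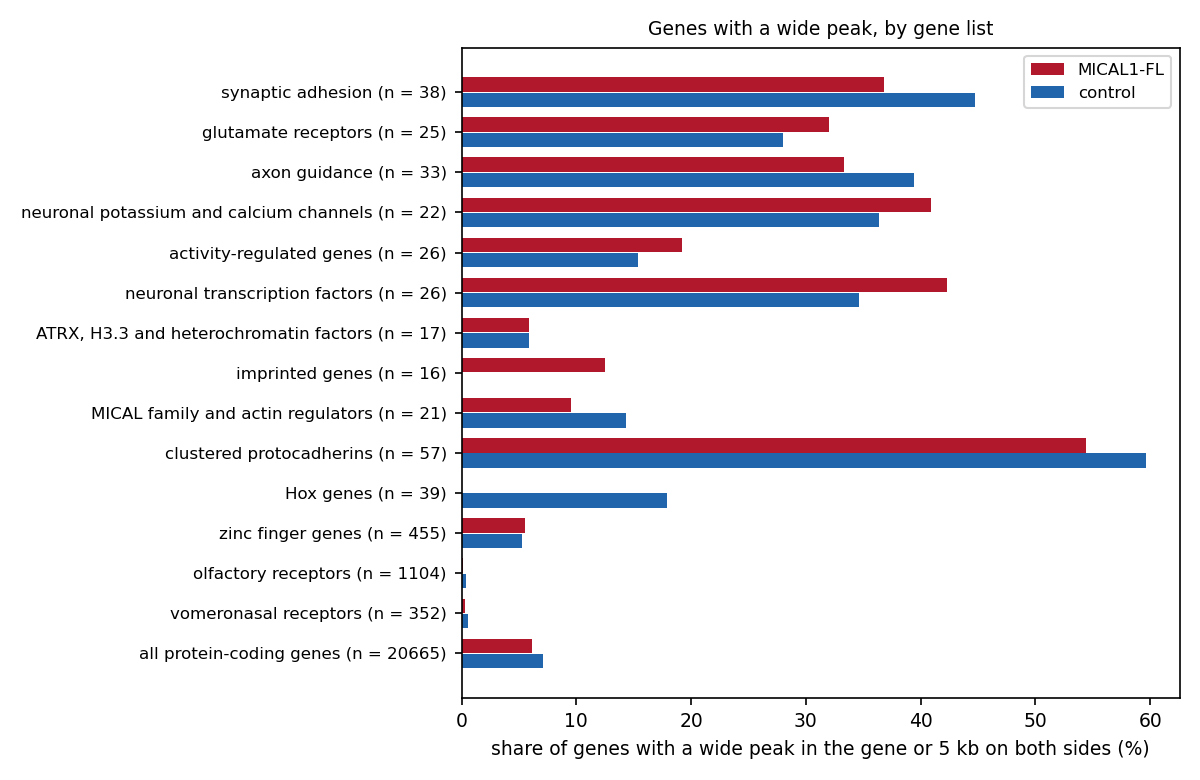
Share of genes (%) with a wide peak in the gene or within 5 kb on both sides, for gene lists of 15 or more genes and for all protein-coding genes, MICAL1-FL in red above control in blue. Synaptic adhesion genes had 36.8% and 44.7%, olfactory receptors 0.0906% and 0.362%, and all genes 6.1% and 7.12%, and the lists differ in gene length.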

How the data were processed

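ATRX ChIP-seq peak lists of 2 libraries, MICAL1-FL and control, were used. MACS 1.4.2, ChIPseeker 1.26.2, SAMtools 1.9 and Bowtie 1.3.0 are named, per the submitters' processing notes. Their roles, the calling threshold and the genome build were not found, being not given in the sources used here. The score, the fold (a ratio over background), the −log10 p and the −log10 q of each peak are values of the authors' peak caller, as deposited. Depth was recovered by taking fold as pileup + 1 over background + 1 and p as a Poisson probability, an inference under which 100% of pileups were whole within 0.05. The lowest backgrounds were 1.617 fragments in the MICAL1-FL list and 1.622 in the control list. That fold is the form a later MACS release writes, as is the layout with a summit and a q, so it is unsure that the named version made the lists, and all depths and backgrounds rest on this reading. Library depth is unknown.

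Members had end minus start of 800 bp or more, and coordinates are 1-based. Gene bodies and starts came from RefSeq tables of GRCm38.p6, at whose starts the summits of both lists gather. Starts on chromosome 18 were not used here, and summits on that chromosome were left out of the shares at starts. The 20085 listed starts belonged to 16457 of the 20665 protein-coding genes. Genes without a listed start included 511 on chromosome 18 and others on the remaining autosomes. Summits at unlisted starts of those other autosomes count as away from a start. Peak sequences needed a genome and were not used, so promoter sequences, added after the data were seen, stood in. Shares have exact Clopper-Pearson, densities exact Poisson and odds ratios exact conditional 95% intervals, computed with Python 3.11.15 and scipy 1.17.1. The recovery of depth, the share of summits in the other list and the count of overlaps were tested on simulated data, and the intervals were not.

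Members and gene lists were chosen with earlier results of these data known. Named peaks were the 10 widest and the 10 with the lowest p in each list and the 15 leading pairs that overlap by 50% of both. Named genes lay under these, had wide peaks in both lists, or led 1 of the 18 gene lists by number of wide peaks. Runs of wide peaks and genes with wide summits at a start in both lists were named after their values were seen. Alternatives were widths of 600 and 1000 bp, other overlap rules, distances of 500 bp and 3 kb, peak midpoints, flanks of 20 to 40 kb, and leaving out the first 3.1 Mb or all but the lowest background. Those for gene starts were added after the data were seen.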

Additional observations from a re-analysis of the deposited data

How the results depend on the processing

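Odds ratios of wide over narrower peaks were recomputed for both other width minima and the lowest background (sharing and gene starts). They were also recomputed without the first 3.1 Mb (sharing) and for midpoints (gene starts). All of these lay between 2.05 and 6.44, so their direction did not turn. For the other overlap rules and the limit on q none was recomputed. Within classes of depth the direction did turn for sharing, at 4 fragments in the MICAL1-FL list and at 5 in the control list. For gene starts it turned at 15 or more fragments in the MICAL1-FL list, where no wide summit lay at a start. In all these classes the intervals included 1. Levels moved with the definitions. Each pair of values here gives the MICAL1-FL list and then the control list. With a minimum of 600 bp there were 8010 and 9249 wide peaks. Their summits lay in a peak of the other list in 7.70% and 7.46%, within 1 kb of a gene start in 10.9% and 9.87%, within 1 kb of either gene end in 12% and 11.3%, and in a gene in 47.4% and 48.8%. The other list had 162 and 160 summits per Mb in them. With a minimum of 1000 bp there were 693 and 862 peaks, with 16.0% and 15.3% shared, 6.64% and 6.15% meeting a wide peak, 270 and 256 summits per Mb, 21.3% and 20% at a start, 23.5% and 22.4% at either end, and 56.9% and 57.0% in a gene.

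Sharing at 800 bp was 25.1% and 24.3% by any overlap, 7.90% and 6.94% by an overlap of 50% of the wide peak, 32.3% and 24.0% with q of 0.05 or lower in both lists, 8.10% and 7.29% at the lowest background, and 8.36% and 8.34% over 1 kb from a start. Flanks of 20 to 40 kb had 58.6 and 57.6 summits per Mb. Summits within 500 bp of a start were 10.8% and 10.1%, within 3 kb 21.3% and 20.4%, and at the lowest background 12% and 11%. For either gene end these were 10.1% and 9.46% within 500 bp and 26.7% and 26.2% within 3 kb, against 17.7% and 16.1% within 1 kb. The remaining 14 values differed from the reported ones by less than their counting interval. In all 48 values were counted as moved, among them the numbers of wide peaks, which have no interval. Those numbers, and shares under another distance or under any overlap, move by definition. For the others the cause was not tested.

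No paired analysis was possible because each condition had 1 library. Most wide peaks are a few fragments deep, so one that is called in a single list is no evidence of a difference there, and MICAL1-FL values rest on a label that the peak identifiers do not repeat.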

Other observations

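Outside chromosomes 1 to 19, wide peaks were less frequent on the X chromosome than on autosomes and more frequent on unplaced scaffolds. Of the X chromosome peaks 7 of 1103 were wide in the MICAL1-FL list, or 0.635% (0.256 to 1.3), and 27 of 1745 in the control list, or 1.55% (1.02 to 2.24). On the Y chromosome 7 of 58 MICAL1-FL peaks, or 12.1% (4.99 to 23.3), and 3 of 73 control peaks, or 4.11% (0.856 to 11.5), were wide. On scaffolds 49 of 176 MICAL1-FL peaks, or 27.8% (21.4 to 35.1), and 33 of 145 control peaks, or 22.8% (16.2 to 30.5), were wide. The first assembled 0.1 Mb of the autosomes, next to the centromeres, had 23 wide of 68 MICAL1-FL peaks and 15 wide of 59 control peaks. The satellite stretch of chromosome 9 gave 12 of these wide MICAL1-FL peaks and all 15 wide control peaks.

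Genes under wide peaks had a lower median length than genes under narrower ones. The median length of the protein-coding gene around a summit was 141 kb for wide and 170 kb for narrower MICAL1-FL summits, and 137 kb for wide and 161 kb for narrower control summits. Few wide peaks had a wide neighbour, with 7.05% in the MICAL1-FL list and 7.31% in the control list having one within 10 kb.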
